A study of Rattus norvegicus with 4 samples.

Results

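Matrix metalloproteinases (MMPs) are zinc-dependent proteases that cut collagens and other proteins outside the cell, and tissue inhibitors of metalloproteinases (TIMPs) bind and block them. The 10 genes described here were taken by symbol from the count matrices, which list 30017 symbols: the proteases Mmp2, Mmp3, Mmp9, Mmp10, Mmp13, Mmp14 and Mmp19 and the inhibitors Timp1, Timp2 and Timp3. Each symbol matched 1 feature. No gene of the family served to assign a cell to a type.

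The study compared X-ray schedules to the esophagus of male Sprague-Dawley rats that were 6 weeks old when assigned. The control library came from rats given 5 sham fractions of 0 Gy and taken on day 7. The single-dose library came from rats given 1 fraction of 35 Gy and taken on day 7. The 2 fractionated libraries came from rats given 5 daily fractions of 7 Gy, the same total of 35 Gy, and taken on day 7 or on day 14. The esophagi of 5 rats per group were pooled into 1 single-cell library, so each group has 1 library, no difference below has a replicate check, and no test between groups was possible. There was no control library of day 14. All tissue was kept in storage solution and shipped for up to 48 hours before dissociation.

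After filtering, the control library kept 11357 cells, the single-dose library 9440 and the fractionated libraries 8878 (day 7) and 9659 (day 14), with median depths from 5058 to 6271 unique molecular identifiers (UMIs, each marking 1 captured transcript). Barcodes with more than 20% mitochondrial UMIs were left out, and they made up 14.4% of the single-dose library against 3.56% to 6.89% of the others. Each pair of libraries shared 26 to 38 barcodes. Cells were typed by a gate on marker genes, and 98.2% of the 35506 gated cells in named clusters sat in a cluster of the same name. Fibroblasts made up 38.6% of the control cells, 6.98% of the single-dose cells, 0.957% (85 cells) of the fractionated day 7 cells and 36.4% of the fractionated day 14 cells. All 10 matched fibroblast markers, among them Col1a1, Dcn and Pdgfra, were part of that gate. Genes induced by dissociation and stress, such as Fos, Jun and Hspa1a, set the libraries apart. In the single-dose library the median log2 ratio to control of this list lay between -4.00 and -2.79 across 7 cell types. On fractionated day 7 it lay between -5.83 and -4.28 across 4 types, and on fractionated day 14 between -0.49 and -0.05 across 6. The part of this split in the results below was not tested.

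MMPs are secreted or displayed as inactive precursors and are switched on by cutting off a propeptide. Mmp2 and Mmp9 are gelatinases, which digest denatured collagen and the type IV collagen of basement membranes, Mmp3 and Mmp10 are stromelysins, Mmp13 is a collagenase, and Mmp14 is a membrane-anchored collagenase that activates pro-Mmp2 in a complex with Timp2. In skin and gut, stromal cells are known as the main source of Mmp2 and of the TIMPs, neutrophils carry Mmp9 in their granules, and Timp3 stays bound to the extracellular matrix.

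The sequences just before the transcription start are shown because 3 of the sparse proteases and the 3 inhibitors differ in the letters before their starts. RefSeq promoter entries (build GRCr8, which is not the build of the count files) matched 6 of the 10 members. The 120 bases before the annotated start are printed 5′ to 3′ on the gene's strand. Capitals mark matches, on either strand, to the AP-1 consensus TGANTCA, to the AP-1 variant TGAGTAA and to the TATA sequence TATAAA. Mmp3 (chr8:12925161-12925280, + strand), Mmp10 (chr8:12974587-12974706, + strand), Mmp13 (chr8:12782709-12782828, + strand), Timp1 (chrX:3771123-3771242, - strand), Timp2 (chr10:104089215-104089334, - strand) and Timp3 (chr7:19459559-19459678, - strand) read:
Mmp3: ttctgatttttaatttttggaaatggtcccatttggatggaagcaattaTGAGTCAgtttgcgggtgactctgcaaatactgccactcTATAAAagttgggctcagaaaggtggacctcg
Mmp10: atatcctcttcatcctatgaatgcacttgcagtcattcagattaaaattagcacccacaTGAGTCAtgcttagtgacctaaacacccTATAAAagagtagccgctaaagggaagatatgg
Mmp13: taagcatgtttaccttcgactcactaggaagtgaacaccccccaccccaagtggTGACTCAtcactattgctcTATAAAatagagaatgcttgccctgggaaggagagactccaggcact
Timp1: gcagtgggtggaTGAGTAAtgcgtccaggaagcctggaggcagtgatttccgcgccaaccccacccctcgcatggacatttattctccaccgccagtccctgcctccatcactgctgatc
Timp2: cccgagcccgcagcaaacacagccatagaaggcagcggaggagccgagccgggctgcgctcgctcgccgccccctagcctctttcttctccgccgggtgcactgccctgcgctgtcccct
Timp3: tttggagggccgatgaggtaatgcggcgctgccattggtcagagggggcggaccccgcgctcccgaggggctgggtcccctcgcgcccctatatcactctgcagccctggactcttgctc

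Mmp3, Mmp10 and Mmp13, which lie on the same chromosome, each held the AP-1 consensus starting 71, 61 and 66 bases before the start, followed by TATAAA. The AP-1 consensus was found in 3.02% and TATAAA in 6.66% of all 33465 RefSeq promoter windows of this length. Timp1 held the variant TGAGTAA 108 bases before its start, a sequence found in 1.08% of windows. Timp2 and Timp3 held none of these 3 sequences and did hold the GC box GGGCGG (on either strand), which 23.7% of windows hold. The Timp1 window lies wholly inside the annotated Timp1 gene span, which begins further upstream, and the last 14 bases of the Mmp3 window lie inside that of Mmp3. These matches describe the letters only.

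Levels are given as CPM, the UMIs of a gene per 1000000 UMIs of its cell type. The reads were counted as 1 UMI per captured transcript, so levels of different genes are set side by side without a length correction. Intervals are exact 95% Poisson, binomial or conditional binomial intervals and cover counting error only, not the spread between animals. Of the 10 genes, Timp1, Timp2, Timp3, Mmp2 and Mmp14 were found in nearly every cell type, whereas Mmp3, Mmp9, Mmp10, Mmp13 and Mmp19 were sparse (map of all members).

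**Figure D1:**
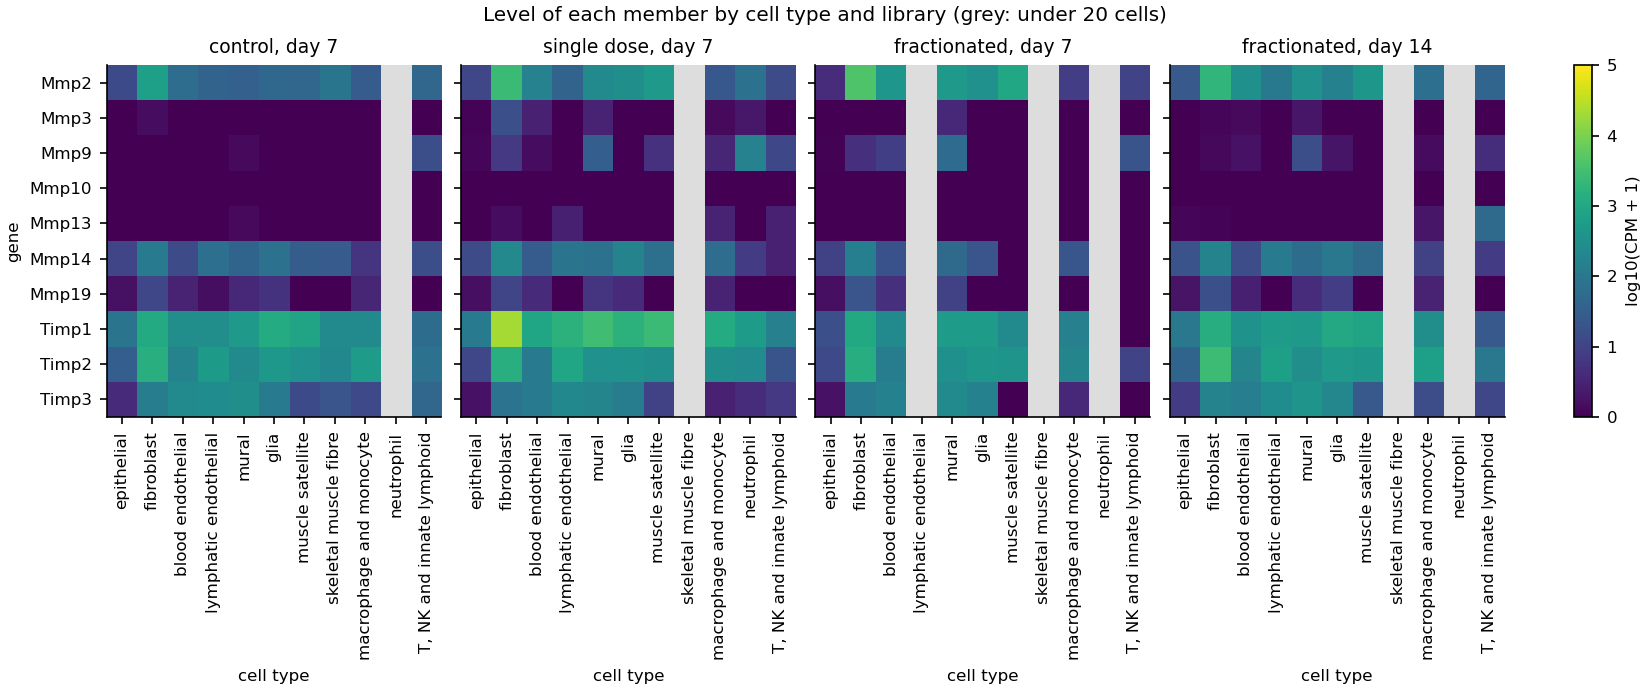
Level of the 10 members, as log10(CPM + 1), in each cell type (columns) and library (panels); grey columns had under 20 cells. The brightest square is Timp1 in single-dose fibroblasts at 21175 CPM, and the rows of Mmp3, Mmp10 and Mmp13 are dark in nearly all columns.

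In control tissue, fibroblasts held 92.8% of all Mmp2 UMIs, 85.1% of Timp2, 81.8% of Mmp19, 76.3% of Mmp14, 71.4% of Timp1 and 52.7% of Timp3. Timp3 was the member with the widest spread over the vessel wall, with 16.8% of its UMIs in blood endothelial cells and 12.5% in mural cells (smooth muscle cells and pericytes). The split was different on fractionated day 7, when few fibroblasts were recovered: blood endothelial cells then held 36.6% of the Mmp2 UMIs against 37.3% in the 85 fibroblasts. Macrophages and monocytes, which were 29.7% of the single-dose cells, held 27.1% of the Mmp14 UMIs and 32.5% of the Timp2 UMIs of that library. These shares move with how many cells of each type were recovered.

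A value was called higher or lower when 2 libraries differed at least 2-fold in CPM and the interval of the ratio did not hold 1, among values with at least 20 UMIs in the 2 libraries and cell types with at least 100 cells in both. The single dose against control gave 44 such member values over 7 cell types, of which 15 were called higher and 4 lower. Over all genes in these types the rule called 8.19% higher and 10.5% lower (18.7% in all). Fractionated day 7 against control gave 22 values over 4 types, with 4 higher and 6 lower, beside 10.7% higher and 11.4% lower over all genes (22.1% in all). Fractionated day 14 against control gave 36 values over 6 types, with 7 higher and 0 lower, beside 6.36% and 3.46% (9.82% in all). The median log2 ratio of the member values was 0.44, -0.30 and 0.39 in these comparisons, and that of all genes was 0.07, 0.05 and 0.07. The 3 comparisons share the control library.

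**Figure D2:**
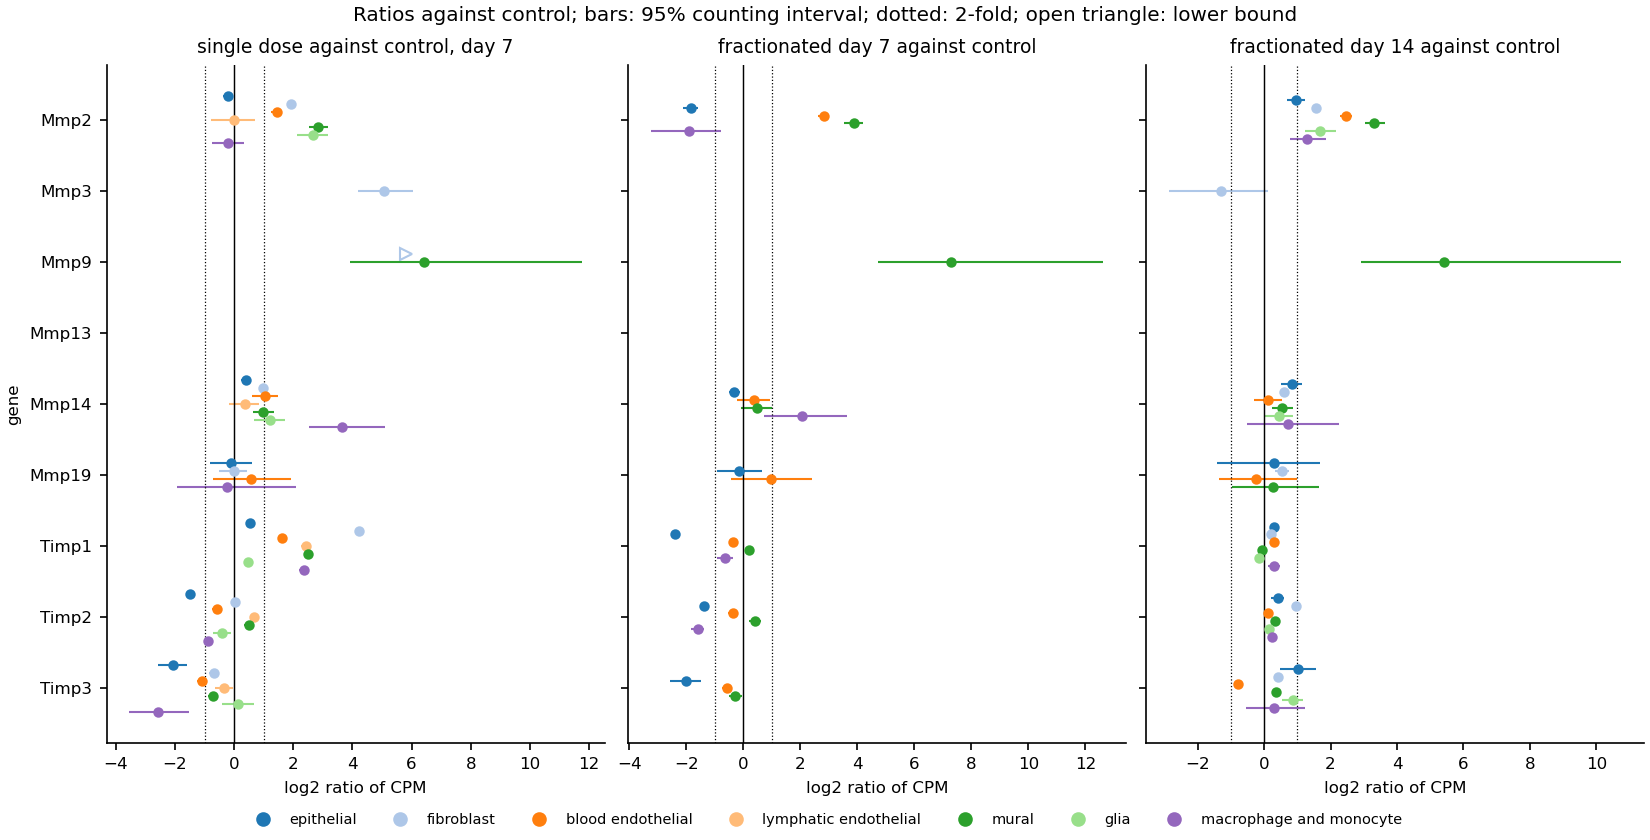
Log2 ratio of CPM to control (x axis) of each member (y axis) in each cell type (colours) with at least 20 UMIs and 100 cells in both libraries; bars are 95% counting intervals, dotted lines mark 2-fold, and open triangles are lower bounds against a control of 0 UMIs (bounds under 1-fold, as for Mmp13, are not drawn). Timp1 stands to the right in 5 of 7 cell types after the single dose (up to 4.24) and at no more than 0.31 on fractionated day 14, where Mmp2 stands to the right in fibroblast, vessel, glial and macrophage cells.

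Of the inhibitors, Timp1 (ENSRNOG00000010208), a secreted inhibitor of most soluble MMPs and also a growth factor for several cell types, differed most after the single dose. In fibroblasts its level was 1124 CPM in the control, 21175 CPM after the single dose, 1071 CPM on fractionated day 7 (85 cells) and 1292 CPM on fractionated day 14. In these pooled levels the single-dose library stands alone, and the other 3 lie close together. The ratio of single dose to control was 18.8-fold (interval 18.6 to 19.1), and Timp1 made up 2.12% of all single-dose fibroblast UMIs against 0.112% in the control. The level differed widely between cells. The median single-dose fibroblast held 7937 CPM (28 UMIs), the 10th and 90th percentile cells held 1021 and 42131 CPM, and the highest cell held 3612 Timp1 UMIs. In the control the median fibroblast held 657 CPM (4 UMIs). The median was lower on fractionated day 7, at 236 CPM (1 UMI), and was 748 CPM (7 UMIs) on day 14. With every cell thinned to 1000 UMIs, 93.0% of single-dose fibroblasts kept a Timp1 UMI, against 52.6% of control, 39.1% of fractionated day 7 and 56.2% of fractionated day 14 fibroblasts.

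The higher Timp1 level after the single dose was not limited to fibroblasts. Mural cells went from 511 CPM in the control to 2896 CPM (5.66-fold, 5.35 to 5.99). Lymphatic endothelial cells went from 297 to 1597 CPM (5.38-fold, 4.83 to 5.99), macrophages and monocytes from 237 to 1213 CPM (5.12-fold, 4.55 to 5.77) and blood endothelial cells from 299 to 922 CPM (3.09-fold, 2.91 to 3.28). Glia, at 1178 and 1636 CPM, did not reach 2-fold (1.39-fold, 1.25 to 1.54), nor did epithelial cells at 81.7 and 120 CPM. Muscle satellite cells, too few for a call, held 827 CPM in the control and 2584 CPM in 63 single-dose cells. Markers of some other cells were also higher in these types. Summed macrophage and monocyte markers went from 40.7 to 500 CPM in blood endothelial cells, from 26.9 to 514 CPM in lymphatic endothelial cells, from 29.9 to 316 CPM in mural cells and from 39.2 to 301 CPM in fibroblasts, with 10 to 12 of 12 markers detected. Summed neutrophil markers in blood endothelial cells went from 26.3 CPM (5 of 8 detected) to 1649 CPM (7 of 8, Cxcr2 at 0). Summed markers of fibroblasts, the type with the highest Timp1 level, went the other way. They were 1676 and 308 CPM in blood endothelial cells and 1847 and 253 CPM in lymphatic endothelial cells (Mfap5 at 0 after the single dose). In macrophages and monocytes they were 1375 and 388 CPM, and in mural cells they were close, at 2952 and 2911 CPM. The part of these markers in the Timp1 ratios was not tested. On fractionated day 14 Timp1 was not called in any of 6 cell types, with fibroblasts 1.15-fold (1.13 to 1.17) above the control.

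The single-dose fibroblasts formed a cluster of their own, and no member of the family was kept out of the clustering. Cluster 28, led by Cxcl6, Ccl11 and Pla2g2a with Timp1 among its 10 leading genes, held 556 of the 659 single-dose fibroblasts and 0 control cells. Control fibroblasts lay mostly in cluster 0 (led by Cilp; 2569 cells) and cluster 14 (led by Postn; 1048 cells), and fractionated day 14 fibroblasts in cluster 3 (led by Ccn5 and Dkk2; 2057 cells) and cluster 0 (1178 cells). The Timp1 level was 23384 CPM in cluster 28. Among the 47 single-dose fibroblasts of cluster 0 it was 6519 CPM, against 1156 CPM in the 2569 control cells of that cluster, which gave 5.64-fold (5.38 to 5.92). This comparison within 1 cluster was chosen after the data were seen.

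**Figure D3:**
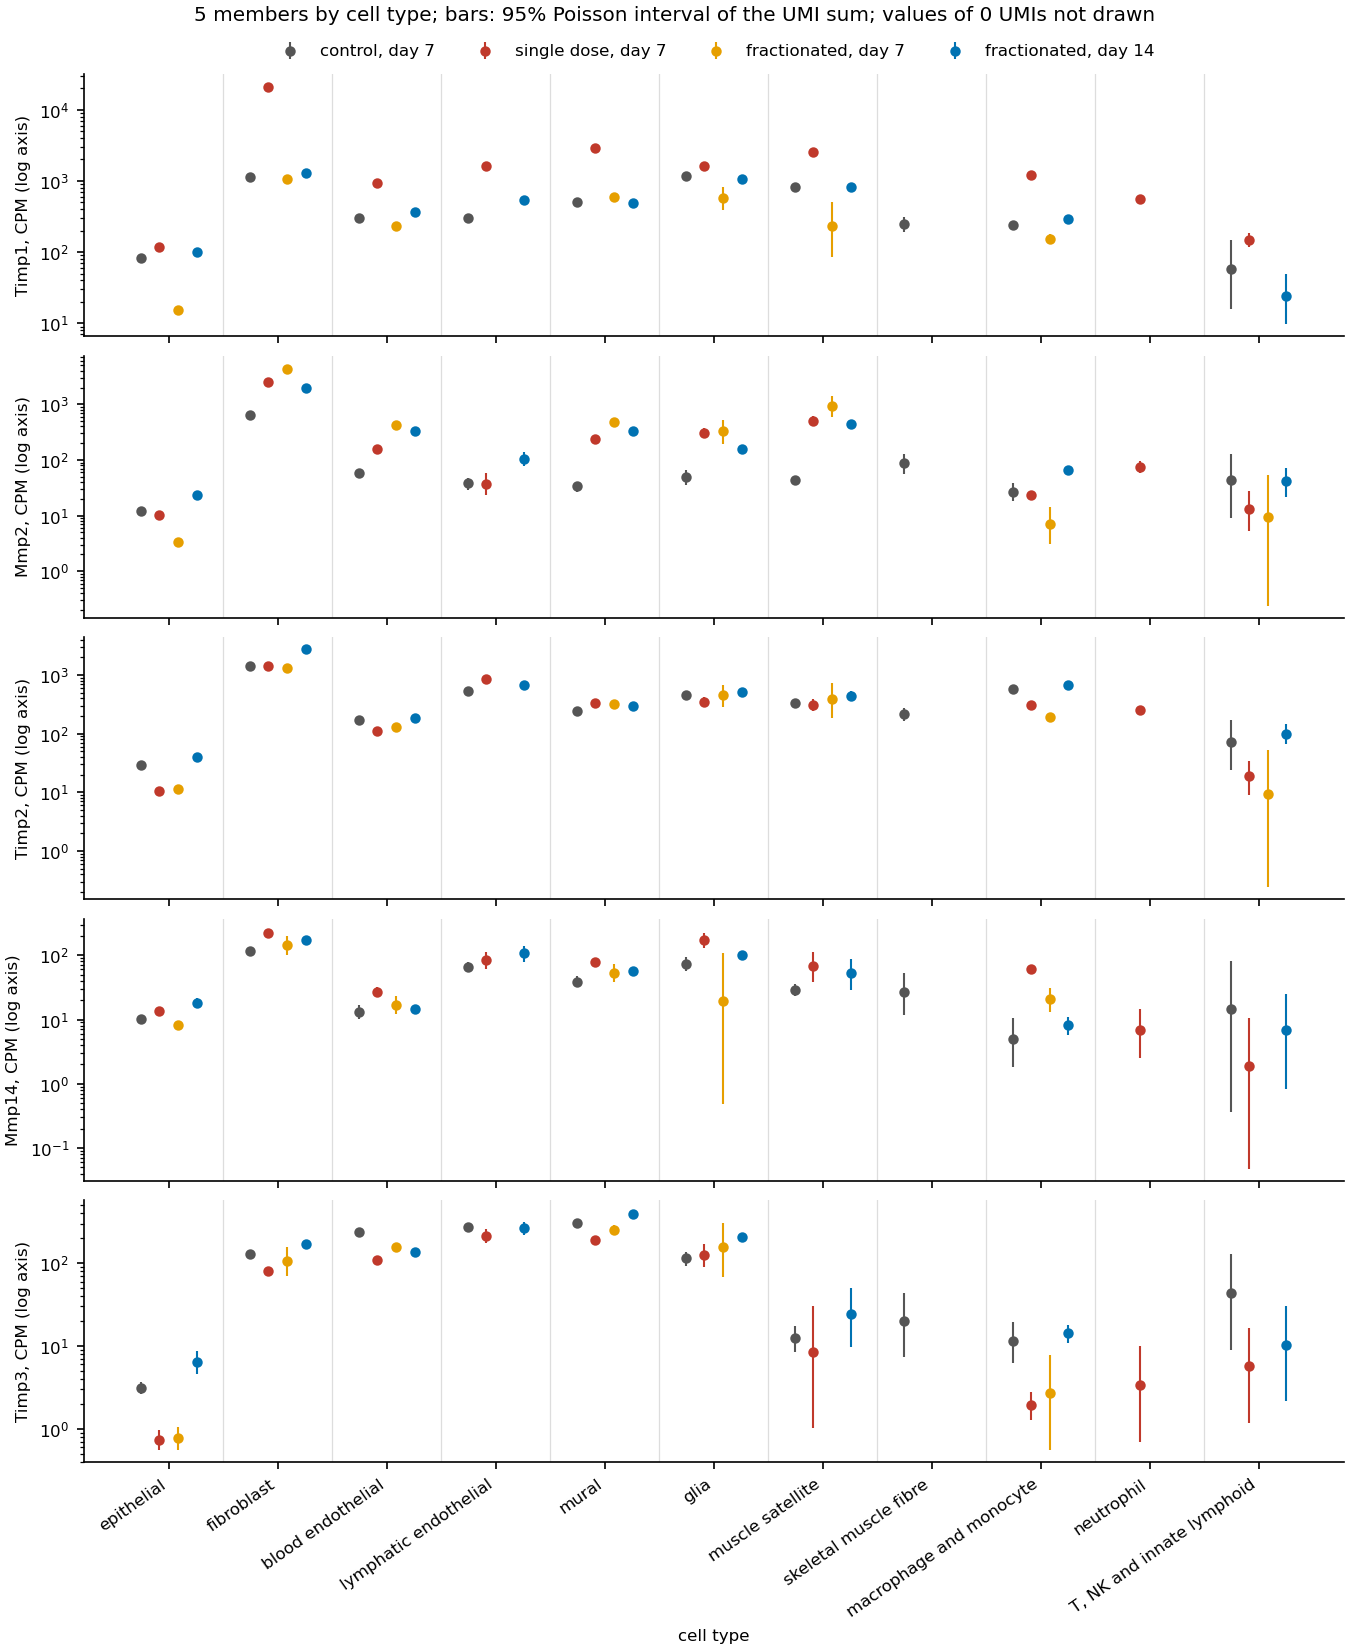
CPM (log axes) of Timp1, Mmp2, Timp2, Mmp14 and Timp3 in each cell type, 1 point per library with its 95% Poisson interval; values of 0 UMIs and types under 20 cells have no point. The single-dose Timp1 points stand above the others in fibroblast, vessel and macrophage columns (21175 against 1071 to 1292 CPM in fibroblasts), while the 3 irradiated Mmp2 points stand above control in fibroblast, blood endothelial, mural, glial and satellite columns.

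Timp2 (ENSRNOG00000003148), which both inhibits MMPs and helps Mmp14 activate Mmp2, was not called in fibroblasts after the single dose. Its fibroblast levels were 1405 CPM in the control, 1442 CPM after the single dose (1.03-fold, 0.999 to 1.05), 1308 CPM on fractionated day 7 and 2723 CPM on fractionated day 14. The day 14 value was 1.94-fold above control (1.92 to 1.96), just under the fold of a call. Within cluster 0 the ratios were different, 1.89-fold (1.74 to 2.04) after the single dose and 1.28-fold (1.25 to 1.31) on day 14. In epithelial cells Timp2 was 29.6 CPM in the control, 10.6 CPM after the single dose (2.79-fold lower, 2.55 to 3.06), 11.4 CPM on fractionated day 7 (2.60-fold lower, 2.35 to 2.87) and 39.4 CPM on fractionated day 14. In macrophages and monocytes it was 575, 311, 191 and 673 CPM in the same order, with fractionated day 7 called lower (3.02-fold, 2.59 to 3.53). The 2 day 7 irradiated libraries lie below the control and day 14 libraries in both types. Epithelial cells of the libraries sat in different clusters: 13, 15 and 30 held mostly control cells, 17, 20 and 27 single-dose cells, and 1, 4, 18 and 21 fractionated day 7 cells. The epithelial differences described here compare these different sets of cells. The macrophage clusters that held most of these cells also differed. Cluster 8, with C1qa, C1qb and C1qc among its leading genes, held the control and day 14 cells, cluster 2 (led by Fcnb and Lyz2) the single-dose cells, and cluster 24 (led by MHC class II genes such as RT1-Bb) the fractionated day 7 cells. Resident macrophages, split off by C1q and scavenger receptor genes, held 893 CPM of Timp2 in the control, 618 CPM after the single dose, 347 CPM on fractionated day 7 and 814 CPM on day 14. Infiltrating monocytes held 123, 269, 125 and 218 CPM (91 control cells).

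Timp3 (ENSRNOG00000004303), the matrix-bound inhibitor, was the inhibitor with the lowest fibroblast level and was highest in mural cells, except after the single dose, when lymphatic endothelial cells held more. Mural levels were 306 CPM in the control, 188 CPM after the single dose, 251 CPM on fractionated day 7 and 394 CPM on day 14, and none of these was called. Blood endothelial cells held 235, 110, 158 and 138 CPM, all 3 irradiated libraries below control, and the single dose was called lower (2.14-fold, 1.93 to 2.39). That call ended with types taken from clusters (log2 ratio -0.96), with cells thinned (-0.96) and with every cell weighted equally (-0.64). Lymphatic endothelial cells held 270 CPM in the control, 214 CPM after the single dose and 265 CPM in 73 day 14 cells. In epithelial cells Timp3 was near the limit of detection: 3.14 CPM (134 UMIs in 2482 cells) in the control, 0.740 CPM after the single dose (4.24-fold lower, 3.06 to 5.96), 0.773 CPM on fractionated day 7 (4.06-fold lower, 2.83 to 5.96) and 6.39 CPM on day 14 (38 UMIs, 2.04-fold higher, 1.38 to 2.94). The day 14 call ended in 5 of the alternatives tried, with log2 ratios of 0.37 to 0.97. In macrophages and monocytes Timp3 went from 11.5 CPM (14 UMIs) to 1.93 CPM (28 UMIs) after the single dose, 5.95-fold lower (2.90 to 11.7).

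Of the proteases, Mmp2 (ENSRNOG00000016695) was the most abundant and the one that differed in the most cell types. Fibroblasts held 657 CPM in the control, 2507 CPM after the single dose, 4275 CPM on fractionated day 7 (85 cells) and 1946 CPM on fractionated day 14. All 3 irradiated libraries lie above the control, 3.82-fold (3.73 to 3.91) after the single dose and 2.96-fold (2.92 to 3.01) on day 14. After thinning, 44.9% of control fibroblasts kept an Mmp2 UMI, against 81.6%, 95.3% and 71.2%. Within cluster 0 the single dose was 3.13-fold (2.86 to 3.41) above control, but fractionated day 14 was 1.29-fold (1.25 to 1.33), which ends that call. The day 14 level was 777 CPM in cluster 0 and 2400 CPM in cluster 3, which has Mmp2 among its 10 leading genes. The 32 control cells of cluster 3 held 1066 CPM (953 to 1189), so day 14 lay above control there too.

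Cells of the vessel wall differed by larger ratios from lower levels. Mural cells held 33.4 CPM of Mmp2 in the control, 237 CPM after the single dose (7.11-fold, 5.72 to 8.94), 486 CPM on fractionated day 7 (14.6-fold, 11.6 to 18.5) and 334 CPM on day 14 (10.0-fold, 8.13 to 12.4). Blood endothelial cells held 59.5, 161, 420 and 330 CPM, ratios to control of 2.70 (2.35 to 3.10), 7.06 (6.20 to 8.06) and 5.54 (4.92 to 6.25). In both types the control is lowest and fractionated day 7 highest. Different clusters held most blood endothelial cells: clusters 5 and 6 those of control and day 14, and cluster 11 (led by Selp and Sele) those of the single dose and fractionated day 7. Within cluster 10, which held cells of all 4 libraries, Mmp2 was 81.1, 221, 524 and 389 CPM. Clusters 5, 6 and 11 also held cells of all 4 libraries, and their levels are not given here. Cluster 12, with the pericyte genes Kcnj8 and Rgs5 among its 10 leading genes, held 47.3, 346, 959 and 556 CPM, and cluster 7, led by the smooth muscle gene Myh11, held 24.0, 131, 121 and 192 CPM. In glia the level was 48.9 CPM in the control, 307 CPM after the single dose (6.28-fold, 4.38 to 9.12) and 157 CPM on day 14 (3.22-fold, 2.35 to 4.50). Satellite cells, the muscle stem cells, held 44.0 CPM in 509 control cells and 507, 942 and 438 CPM in 63, 21 and 67 irradiated cells. Lymphatic endothelial cells did not follow: their levels of 37.8 and 37.5 CPM gave a single-dose ratio of 0.991 (0.577 to 1.64), although types taken from clusters gave a log2 ratio of -1.34. The 73 lymphatic cells of day 14 held 105 CPM.

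In droplet data, RNA free in the suspension can add UMIs of a fibroblast gene to other cells. It was not measured here, so Mmp2 was also set against epithelial cells of the same library. Epithelial cells held 0.208 Mmp2 UMIs per cell in the control, 0.229 after the single dose, 0.0265 on fractionated day 7 and 0.330 on day 14. Their median depth was 15281 UMIs in the control, against 3862 in macrophages and monocytes and 3958 in mural cells. Mural cells held 0.137, 1.49, 1.00 and 1.94 UMIs per cell, and blood endothelial cells 0.246, 0.960, 1.01 and 2.01. In the control these values were 0.661 (mural) and 1.18 (blood endothelial) times the epithelial one, and in the 3 irradiated libraries 4.19 to 38.1 times it. Macrophages and monocytes held 0.117, 0.120, 0.0158 and 0.309 UMIs per cell, below the epithelial value in every library. In CPM they were above it, at 27.1, 23.2, 7.16 and 66.9 against 12.1, 10.4, 3.35 and 23.5. Macrophage and monocyte Mmp2 was called 3.78-fold lower than control on fractionated day 7 (1.71 to 9.48) and 2.47-fold higher on day 14 (1.72 to 3.65), and the part of free RNA in these differences was not tested. The epithelial Mmp2 level itself was 3.61-fold lower than control on fractionated day 7 (3.03 to 4.32), when fibroblasts were 0.957% of cells. Epithelial Timp1 was also lower there, at 15.5 against 81.7 CPM (5.26-fold, 4.86 to 5.69). The part of the fibroblast share in these epithelial values was not tested. Summed fibroblast markers in blood endothelial cells were 1676 CPM in the control and 308, 219 and 951 CPM in the irradiated libraries. All 10 markers were detected there, except Pdgfra on fractionated day 7, in blood endothelial and in mural cells. In mural cells, which express several of these collagens themselves, they were 2952, 2911, 6105 and 2484 CPM. Epithelial cells held 694 CPM of these markers in the control and 88.9, 27.5 and 486 CPM in the irradiated libraries. Macrophages and monocytes held 1375, 388, 78.8 and 1130 CPM. In both types the markers and Mmp2 were lowest on fractionated day 7. On day 14 the markers lay below control and Mmp2 above it. Fibroblasts themselves held 50396 CPM of these markers in the control and 60314 CPM on day 14, when their Mmp2 level was also above control. The part of these markers in the Mmp2 values was not tested.

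**Figure D4:**
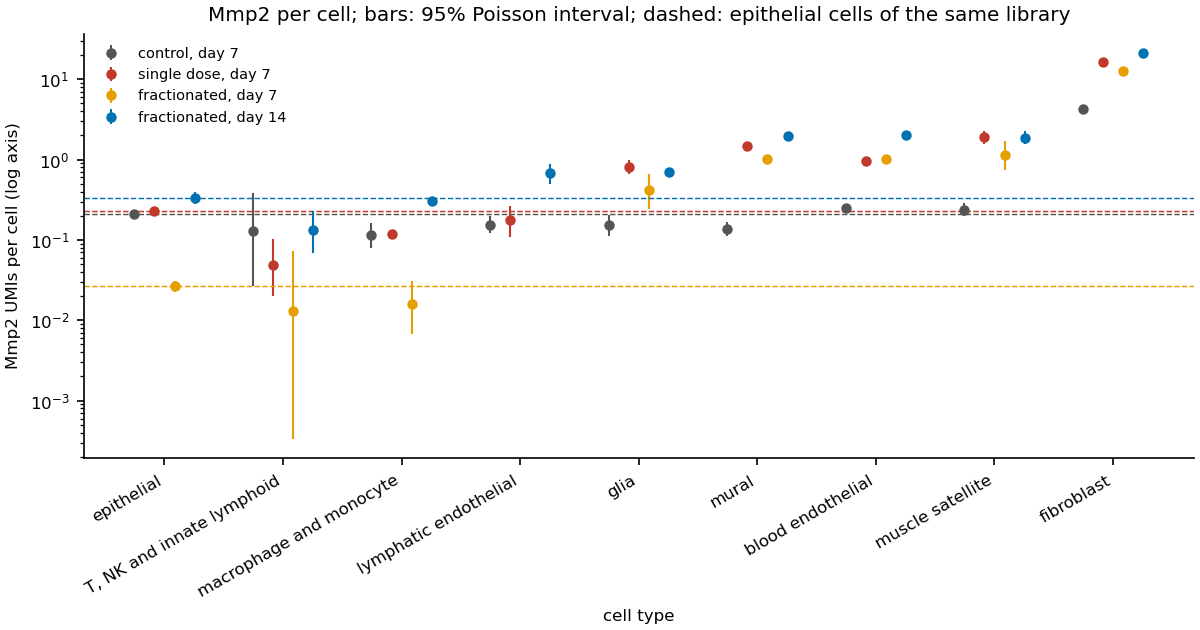
Mmp2 UMIs per cell (log axis) by cell type and library, with 95% Poisson intervals; dashed lines carry the epithelial value of each library across the plot. Control mural, glial and satellite points sit near the control line, irradiated mural and blood endothelial points sit above their own lines (for example 1.94 against 0.330 UMIs per cell in day 14 mural cells), and macrophage points sit at or below them.

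Mmp14 (ENSRNOG00000010947), the membrane protease that activates Mmp2, was highest in fibroblasts, at 114 CPM in the control, 224 CPM after the single dose, 142 CPM on fractionated day 7 and 172 CPM on day 14. The single-dose ratio of 1.96 (1.83 to 2.11) was just under the fold of a call and passed it with doublets kept, with cells thinned and with every cell weighted equally. The ratio of mural cells was likewise close, 1.98 (1.56 to 2.53). Blood endothelial cells (13.2 to 27.2 CPM, 2.05-fold, 1.51 to 2.82) and glia (73.9 to 170 CPM, 2.30-fold, 1.59 to 3.32) were called higher after the single dose, and alternatives ended both calls (log2 ratios of 0.61 to 0.96). The largest ratio was in macrophages and monocytes, from 4.92 CPM (6 UMIs) in the control to 61.5 CPM (892 UMIs) after the single dose, 12.5-fold (5.72 to 34.1). They held 20.6 CPM (23 UMIs) on fractionated day 7, called 4.18-fold higher (1.65 to 12.6) except at a mitochondrial limit of 10% (log2 ratio 1.23), and 8.12 CPM on day 14. Per cell, single-dose macrophages and monocytes held 0.318 Mmp14 UMIs, epithelial cells 0.296, neutrophils 0.00751 and T, NK and innate lymphoid cells 0.00704. Their median depths were unlike, at 4854, 18662, 1026 and 3374 UMIs, so these counts per cell are not levels at equal depth. In CPM the 90th percentile cell held 238 among macrophages and monocytes and 62.8 among epithelial cells. Split by markers, resident macrophages held 4.19, 101, 57.4 and 7.63 CPM and infiltrating monocytes 5.97, 56.0, 5.09 and 9.72 CPM in the order control, single dose, fractionated day 7 and day 14. On fractionated day 14 Mmp14 was called in 0 of 6 types.

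Mmp9 (ENSRNOG00000017539), the gelatinase of neutrophil granules, was nearly absent from the control library, with 3 UMIs in 11357 cells. All kept cells held 334 UMIs after the single dose, 70 on fractionated day 7 and 121 on day 14. After the single dose, 43.4% of them lay in neutrophils, where 101 of 799 cells (12.6%, 10.4 to 15.1) held 145 UMIs, a level of 163 CPM. The other libraries had 4 to 8 neutrophils, too few for a level. The second source was mural cells. They held 1 UMI in 691 control cells, 72 in 377 single-dose cells, 41 in 361 fractionated day 7 cells and 89 in 1014 day 14 cells, which is 0.351, 30.4, 55.1 and 15.1 CPM. With 1 control UMI the ratios are wide: 86.6 (15.1 to 3467), 157 (26.6 to 6341) and 43.1 (7.53 to 1720). Few cells carried these UMIs, 18, 10 and 20 in the 3 irradiated libraries, with up to 16, 19 and 23 UMIs in a cell. Cluster 12 held 71 of the 72, 40 of the 41 and 62 of the 89 UMIs, whereas cluster 7 held 0, 1 and 27. Among mural cells with at least 2 Mmp9 UMIs (11, 6 and 10 cells), the leukocyte genes Ptprc and Csf3r had 0 UMIs in all 3 libraries, and the pericyte gene Kcnj8 was found in 11, 6 and 7 of them. The mural gene Notch3 was found in 2, 0 and 2 of them. The myeloid gene Lyz2 was found in 6 of the 11 single-dose and 3 of the 10 day 14 cells, and the neutrophil gene S100a9 in 4 of the 11 single-dose cells and in none of the others. Kcnj8 and Notch3 were markers of the mural gate, and Csf3r, S100a9 and Lyz2 were markers of competing types. The gate therefore partly fixed these counts, and they do not show independently what these cells are. Ptprc was in no marker list. Summed neutrophil markers in all mural cells were 37.9 CPM in the control and 154, 98.1 and 45.4 CPM in the irradiated libraries, with 3 of 8 markers detected in the control and 6, 6 and 7 in the others. Their part in the mural Mmp9 level was not tested. Fibroblasts held 0 Mmp9 UMIs in the control and 25 after the single dose, at least 55.5-fold higher against a floor of 3 counts, of which 17 lay in 2 cells. These cells were looked at after their values were seen.

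The stromelysins and the collagenase Mmp13 were at the limit of detection. Mmp10 had 1 UMI in all kept cells of the 4 libraries, in a day 14 fibroblast. Mmp3 had 65 UMIs in single-dose fibroblasts and 13 in control fibroblasts, called 33.3-fold higher (18.2 to 65.8), but 2 of the 659 single-dose cells held 63 of the 65. Without these 2 cells 2 UMIs remain, so the call rests on them. Mmp13 had 29 UMIs in single-dose macrophages and monocytes, 28 of them in 1 cell, and 15 UMIs in 9 of 91 T, NK and innate lymphoid cells of day 14. In such cells it had 0 UMIs in 23 of the control, 1 UMI in 142 of the single dose and 0 UMIs in 76 of fractionated day 7. Mmp19, a secreted protease of stromal cells, was low and even: fibroblasts held 10.5 CPM in the control, 10.3 CPM after the single dose, 19.8 CPM on fractionated day 7 (5 UMIs) and 15.3 CPM on day 14. It was called in none of the 5 comparisons, and 14.1% of day 14 fibroblasts held at least 1 of its UMIs against 6.21% of control fibroblasts at a lower depth (9867 and 6926 UMIs).

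Fractionation was set against the single dose of the same total, both on day 7, in 4 cell types. Of 27 member values, 3 were higher and 7 lower on fractionated day 7, beside 9.81% and 10.5% of all genes (20.3% in all). Timp1 was lower in all 4 types: 7.97-fold (6.86 to 9.33) in macrophages and monocytes, 7.69-fold (7.15 to 8.29) in epithelial cells, 4.92-fold (4.47 to 5.43) in mural cells and 3.98-fold (3.65 to 4.35) in blood endothelial cells. Mmp2 was higher in blood endothelial cells (2.62-fold, 2.38 to 2.88) and in mural cells (2.05-fold, 1.79 to 2.34), and 3 alternatives ended the mural call (log2 ratios of 0.60 to 0.99). It was called lower in the other 2 types, epithelial cells and macrophages and monocytes, whose CPM levels are given above. Per cell the Mmp2 counts were 1.05 (blood endothelial) and 0.673 (mural) times the single-dose values, so the mural direction differs between CPM and UMIs per cell. Median mural depth was 1691 against 5247 UMIs. Mmp9 was higher in blood endothelial cells with 19 against 2 UMIs (16.3-fold, 3.94 to 145). Mmp14 was 2.99-fold lower (1.98 to 4.74) in macrophages and monocytes. Fibroblasts could not be compared by this rule, with 85 cells on fractionated day 7.

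Day 14 was set against day 7 of the fractionated schedule in the same 4 types. Of 25 member values, 8 were higher and 3 lower, beside 12.5% and 10.3% of all genes (22.8% in all). In epithelial cells 5 members were higher on day 14, among them Mmp2 (3.35 to 23.5 CPM), Timp1 (15.5 to 101 CPM) and Timp2 (11.4 to 39.4 CPM). Mmp14 was the exception among these under another setting, since its epithelial log2 ratio of 1.15 became -0.036 with cells thinned to 1000 UMIs. In macrophages and monocytes 3 members were higher, among them Timp2 (3.53-fold, 3.07 to 4.08), and Mmp14 was 2.53-fold lower (1.45 to 4.35), a call that ended at a mitochondrial limit of 10% (log2 ratio -0.79). Mmp9 was lower in mural cells (3.64-fold, 2.45 to 5.33; log2 ratio -0.88 and no call with a stricter marker gate) and in blood endothelial cells (9.63-fold, 4.35 to 22.4). Blood endothelial Mmp2, at 420 and 330 CPM, and mural Mmp2, at 486 and 334 CPM, stayed within 2-fold.

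The sum of the 3 inhibitors was set against the sum of the 7 proteases within each cell type. Control fibroblasts held 3.40 TIMP UMIs per MMP UMI (3.35 to 3.45), single-dose fibroblasts 8.21 (8.06 to 8.37), the 85 fractionated day 7 fibroblasts 0.560 (0.507 to 0.618) and day 14 fibroblasts 1.96 (1.95 to 1.98). The single-dose value lies above control and both fractionated values below it. Timp1 and Mmp2 make up most of each sum after the single dose, and without Timp1 the order differs. Timp2 UMIs per Mmp2 UMI were 2.14 (2.10 to 2.18) in the control, 0.575 (0.557 to 0.594) after the single dose, 0.306 (0.270 to 0.346) on fractionated day 7 and 1.40 (1.39 to 1.41) on day 14, all 3 below control. Blood endothelial cells held 9.39, 5.93, 1.16 and 2.0 TIMP UMIs per MMP UMI and mural cells 13.9, 9.72, 1.91 and 2.90, with the control highest and fractionated day 7 lowest. These are ratios of transcript counts, and neither protein nor protease activity was measured.

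**Figure D5:**
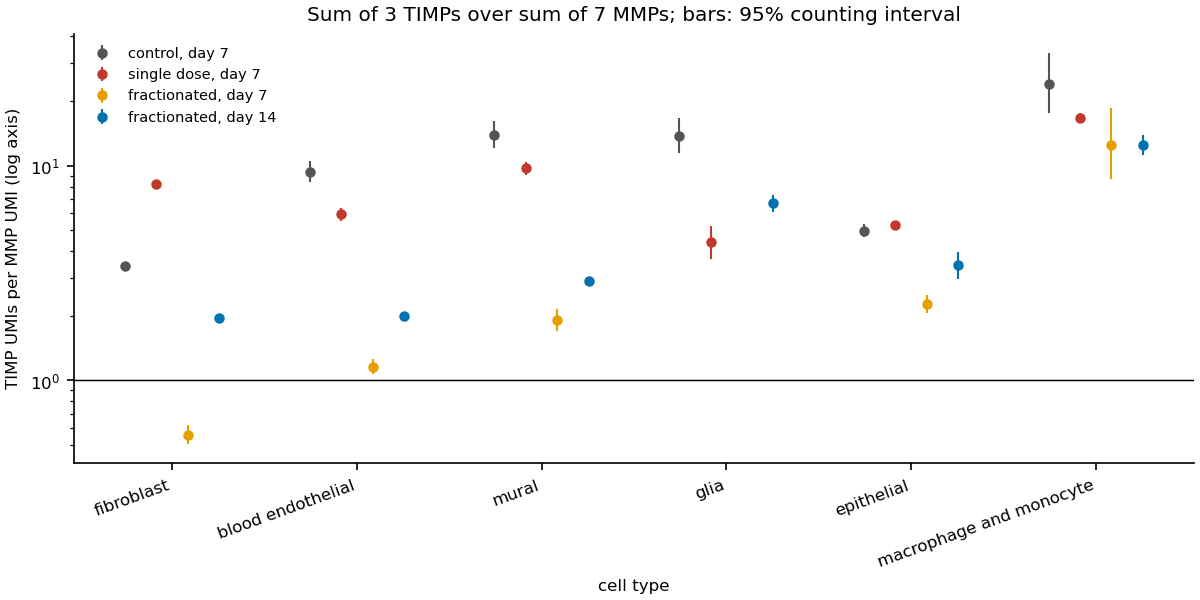
TIMP UMIs (3 genes) per MMP UMI (7 genes) on a log axis by cell type and library, with 95% counting intervals; the line marks equal counts. The single-dose fibroblast point (8.21) lies above its control (3.40), the fractionated day 7 fibroblast point (0.560) lies below equality, and in blood endothelial and mural columns the control points are the highest.

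Transcripts of the 3 genes of the pro-Mmp2 activation complex were also looked for in the same cell. After thinning to 1000 UMIs, 154 of 3883 control fibroblasts (3.97%, 3.37 to 4.63) held Mmp2, Mmp14 and Timp2 together. The share was 12.7% (9.99 to 15.9) of 527 single-dose, 9.38% (3.52 to 19.3) of 64 fractionated day 7 and 9.70% (8.72 to 10.7) of 3371 day 14 fibroblasts. Blood endothelial cells stayed at or below 0.183% and mural cells at or below 1.12%.

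Other genes of matrix proteolysis were counted from a list of 46 symbols, 44 of which matched: further MMPs and Reck, the plasminogen activation genes, ADAM and ADAMTS proteases, cathepsins and partners of MMPs. The list was also chosen with results of these data known. After the single dose 6 of 33 tested list genes were higher and 7 lower in fibroblasts, beside 10% and 10.5% of all fibroblast genes. In epithelial cells 3 of 32 were higher and 15 lower. On fractionated day 7 epithelial cells had 0 of 31 higher and 15 lower, and on day 14 8 of 31 higher and 0 lower. The median log2 ratio of the list in epithelial cells was -0.91, -0.82 and 0.30, beside 0.16, 0.04 and 0.04 for all genes, and the rule called 9.05%, 11% and 7.72% of all epithelial genes higher and 10.7%, 12.2% and 3.66% lower. Lcn2, a lipocalin that binds Mmp9, had the largest ratio: 0.740 CPM (21 UMIs) in control fibroblasts and 4083 CPM after the single dose. Sdc4, a cell surface proteoglycan, was 6.34-fold higher (5.93 to 6.77) in single-dose fibroblasts and 65.2-fold lower (36.2 to 131) in fractionated day 7 macrophages and monocytes (11 against 782 UMIs). Serpinb2, an inhibitor of plasminogen activation, went from 658 CPM in control epithelial cells to 63.3 CPM after the single dose, 86.4 CPM on fractionated day 7 and 339 CPM on day 14. It is among the 10 leading genes of the control-rich epithelial clusters 13 and 15. Adamts1 and Adamts4, proteases of proteoglycans, were lower in fractionated day 7 mural cells, at 13.4 against 195 CPM and 14.8 against 102 CPM. On day 14 Plau, the urokinase plasminogen activator, was 3.76-fold higher (2.23 to 6.82) in macrophages and monocytes, the membrane-anchored MMP inhibitor Reck 2.69-fold higher (1.98 to 3.71) in glia, and Adam8 2.65-fold higher (1.81 to 3.80) in epithelial cells. Against the single dose, fractionated day 7 had 11.6-fold less of the cathepsin Ctsl (9.71 to 14.0) in macrophages and monocytes.

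The genes with the pattern most like each member were found by Pearson's r of log2(CPM + 1) over 27 points (a cell type in a library with at least 100 cells) among 12905 genes. Points of 1 library share its depth and those of 1 type its identity, so r is a description only. Timp3 had the closest companions: Igfbp7 (r = 0.97), Lama4 (0.96) and Selenom (0.95). Mmp2 was most like Fbn1 (0.90), C1r (0.90) and Srpx (0.89), and Timp1 most like C1r (0.85), Mcrip1 (0.85) and Serping1 (0.85). For Timp2 these were Itm2c (0.89), Csgalnact2 (0.88) and Cd63 (0.88), for Mmp14 Acyp2 (0.88), Sh3pxd2b (0.88) and Tspan31 (0.86), and for Mmp19 Creb3l1 (0.86), Naglu (0.84) and Chrdl1 (0.83). Mmp9 had the loosest, with Xpo6 at 0.73, R3hdm4 at 0.72 and Cyp4f18 at 0.70.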

How the data were processed

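Single-cell RNA was measured in 4 pooled libraries. The authors deposited raw UMI counts per gene and barcode from Cell Ranger 5.0.0, per the file headers. The genome builds were rn7 and mRatBN7.2, per the submitters' processing notes, with no annotation release named. Libraries held 10468 to 12505 barcodes and 59805782 to 109618791 UMIs.

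Barcodes with at least 500 UMIs, at least 200 genes and at most 20% mitochondrial UMIs were kept. Doublets (2.22% to 4.18%) were called with Scrublet in scanpy 1.11.5, at an expected 0.8% per 1000 cells, and left out. Each marker's log-scaled level was divided by its 99.9th percentile, and a cell took the type with the highest mean if at least 3 of its markers had a UMI and it led by 0.05. In all, 160 of 175 listed markers matched, and 3.67% to 8.29% of cells had no type. Leiden clusters (2000 variable genes, 30 components, 15 neighbours, resolution 1) gave the alternative typing: 31 of 36 clusters were named.

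Counts were summed per library and type. Levels need at least 20 cells. Ratios carry exact conditional binomial intervals (scipy 1.17.1), and a count of 0 was set to a floor of 3. With 1 library per group no test was run. UMIs are independent molecules only as far as they were collapsed correctly, and all intervals cover counting error only.

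The members, marker lists and pathway lists were chosen with earlier results of these data known. Named were all members, the 4 list genes per comparison, of at least 50 UMIs and at least 0.5 of their highest level in another type, whose interval lay farthest from 1, and the 3 genes most like each member with at least 200 UMIs. One gene that this rule names is not reported here. Alternatives were other cell filters, typing, scaling, weighting, depth and minimum counts.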

Additional observations from a re-analysis of the deposited data

Results flagged for a closer look

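Timp3 in epithelial cells stood on opposite sides of control on the 2 days of the fractionated schedule, with a log2 ratio of -2.02 on day 7 and 1.03 on day 14. Mmp2 in macrophages and monocytes did the same, at -1.92 on day 7 and 1.30 on day 14. Each group is 1 library, so neither difference was tested. Both genes were at low levels in these types, with 39 and 38 epithelial Timp3 UMIs and 8 and 321 Mmp2 UMIs on the 2 days. The day 14 call of epithelial Timp3 ended in 5 of the alternatives tried. Summed fibroblast markers also moved, at 694, 27.5 and 486 CPM in epithelial cells of control, day 7 and day 14. In macrophages and monocytes they were 1375, 78.8 and 1130 CPM. Their part in these values was not tested.

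In the barcodes left out for more than 20% mitochondrial UMIs, members of the family lay above control in some libraries and below it in others. Timp1 in these barcodes was 466 CPM after the single dose and 160 CPM in the control, a log2 ratio of 1.54. Mmp2 was 238 CPM on fractionated day 14 and 83.7 CPM in the control, a log2 ratio of 1.51. Timp2 (221 against 165 CPM), Timp3 (75.2 against 43.2 CPM) and Mmp14 (35.3 against 31.1 CPM) were also above control on day 14. Timp1 was below it then (147 against 160 CPM). Mmp9 had 0 UMIs in the control and 7, 5 and 6 in the irradiated libraries. After the single dose Mmp2 was 86.6 CPM, near control. Timp2 in these barcodes was lower after the single dose, at 47.0 against 165 CPM, as was Timp3, at 7.51 against 43.2 CPM, and Mmp14, at 23.9 against 31.1 CPM. On fractionated day 7, Mmp2, Mmp14, Timp1, Timp2 and Timp3 were all below control. These barcodes entered no comparison and were not typed.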

How the results depend on the processing

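Over 154 values and 1194 alternative values, 1193 kept the direction of a called value or had none to reverse. The exception was epithelial Mmp14 on fractionated day 14 against day 7, with a log2 ratio of -0.036 after thinning to 1000 UMIs per cell. Only called values could be reversed. They were 19 of 44, 10 of 22 and 7 of 36 values for the single dose, fractionated day 7 and day 14 against control. They were 10 of 27 for fractionated against single dose and 11 of 25 for day 14 against day 7. Sizes moved more: log2 ratios changed by up to 1.90 with thinning, 1.78 with equal weighting and 2.38 at the 10% limit. Thinning gave 4 called values on fractionated day 14 against control, where 7 were called, and 5 on fractionated day 14 against day 7, where 11 were called. A minimum of 100 UMIs gave 7 there. In these settings fewer counts enter each value. The other counts stayed within 1.5 times. Across settings a 10% mitochondrial limit ended 4 calls, cluster typing 3, thinning 5, equal weighting of cells 4, a stricter marker gate 2, no mitochondrial limit 2, doublets kept 1 and median-of-ratios scaling 1. These counts cover only values that remained in the setting, which with thinning were 114 of the 154. Calls on values that dropped out with thinning are not among its 5. Equal weighting added 5 calls, thinning 3, doublets kept 3, the 10% limit, cluster typing and the stricter gate 2 each, and median-of-ratios scaling 1. Values within cluster 0 were added after seeing the data and ended the day 14 fibroblast Mmp2 call (log2 ratio 0.36). No paired analysis was possible because each group is 1 library. Depth limits Mmp3, Mmp9, Mmp10, Mmp13 and Mmp19, whose values rest on few UMIs. The interval of a ratio says nothing about animals, and no alternative here replaces a second library.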
